A study of Homo sapiens and Mus musculus with 12 samples.

Results

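The GFI1 ChIP-seq list of THP1 cells held 3461 peaks, and 1402 of them (40.5%) were intronic. A peak was counted as intronic when its summit, the base with the most sequenced fragments, lay over 1000 bp from every start of a protein-coding transcript, in no exon of any gene and within the body of a gene of GENCODE release 44 (genome build GRCh38). The remaining peaks of the list were 896 promoter peaks (25.9%), with a summit within 1000 bp of a coding start, 934 intergenic peaks (27.0%) and 229 exonic peaks (6.62%). The rule divides a continuous range of distances. The intronic peaks nearest to a coding start were those of LAPTM4B at 1002 bp (fold 7.41), FNBP1 at 1007 bp (fold 4.72) and KREMEN2 at 1011 bp (fold 6.87). Just outside the rule lay peaks in LRP1 at 1000 bp from the STAT6 start (fold 5.35), ELMO1 at 992 bp (fold 5.91) and SLC4A7 at 990 bp (fold 9.43).

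THP1 is a human monocytic leukemia line, and its untreated cells gave 1 GFI1 and 1 SPI1 library. The intronic peaks were also set beside 3 lists from K562, a human leukemia line with erythroid features that had been made to express Cas9 and a guide RNA. In sg-NT cells, with a guide that has no target, LSD1 and GFI1 were immunoprecipitated, and in sg-LSD1 cells, a single edited line with little LSD1 protein left, GFI1 was. The lists held 1846 SPI1 peaks, 6548 LSD1 peaks, 498 GFI1 peaks of sg-NT cells and 160 GFI1 peaks of sg-LSD1 cells. All cells had been fixed with DSG and formaldehyde. Since every condition and antibody is represented by 1 library, nothing could be compared with a spread between replicates, and p-values across conditions are not given. Intervals are 95% intervals that cover counting error only. The study names the available GFI1 antibodies as a technical limit, so an absent peak is not evidence of an unbound site. Peak lists carry no expression values, and the identity of the cells could not be checked against marker genes.

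GFI1 is a zinc finger repressor of blood cells that reads a short DNA core, AATCAC, and recruits the histone demethylase LSD1 through its SNAG domain. It is known for restraining monocytic genes in granulocyte precursors, where it counters SPI1 (PU.1), the ETS factor that drives myeloid enhancers. Introns of blood genes hold many of the enhancers that such factors use, often beside sites of RUNX, C/EBP and AP-1 factors.

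The sequences below are 50 bp windows at the summits of intronic peaks that held the GFI1 core AATCAC or the SPI1 core GAGGAAGT, which are in capitals. They were chosen from the strongest intronic peaks, from the strongest of those shared with another list and from the gene lists described further on. Each is from GRCh38 and is written 5′ to 3′ on the strand on which the core reads.
STAB1 intron 1 (chr3:52498944-52498993, plus strand): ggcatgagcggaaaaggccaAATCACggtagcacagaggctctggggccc
FMNL1 intron 1 (chr17:45229281-45229330, minus strand): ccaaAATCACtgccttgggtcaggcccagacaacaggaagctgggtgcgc
SMAP2 intron 1 (chr1:40390263-40390312, minus strand): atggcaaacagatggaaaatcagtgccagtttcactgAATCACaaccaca
NFAM1 intron 4 (chr22:42397439-42397488, minus strand): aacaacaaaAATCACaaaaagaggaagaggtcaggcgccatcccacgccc
WWP2 intron 2 (chr16:69796706-69796755, plus strand): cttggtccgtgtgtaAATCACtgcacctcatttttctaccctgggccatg
FLT1 intron 15 (chr13:28347901-28347950, minus strand): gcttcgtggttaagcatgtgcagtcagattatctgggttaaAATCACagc
CSF1R intron 14 (chr5:150058990-150059039, plus strand): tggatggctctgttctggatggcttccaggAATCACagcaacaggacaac
MBNL1 gene body (chr3:152244196-152244245, minus strand): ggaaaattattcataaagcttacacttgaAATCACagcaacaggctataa
NR4A1 gene body (chr12:52033360-52033409, plus strand): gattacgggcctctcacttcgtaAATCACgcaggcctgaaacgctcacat
RREB1 intron 1 (chr6:7166747-7166796, plus strand): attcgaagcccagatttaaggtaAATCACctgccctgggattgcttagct
MYB intron 1 (chr6:135183887-135183936, minus strand): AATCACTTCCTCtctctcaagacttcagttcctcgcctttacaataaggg
DOCK10 intron 1 (chr2:224938907-224938956, minus strand): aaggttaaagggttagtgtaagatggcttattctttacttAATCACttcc
OSBPL11 intron 1, SPI1 core (chr3:125594389-125594438, plus strand): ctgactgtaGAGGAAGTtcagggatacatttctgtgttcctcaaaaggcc
DOCK10 intron 1, SPI1 core (chr2:225008582-225008631, minus strand): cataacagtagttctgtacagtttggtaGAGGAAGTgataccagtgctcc

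The cores under intronic summits, like those under promoter summits, were more often part of a longer GFI1 element than the same 6 bases 2000 bp away. Of the 150 AATCAC cores in intronic summit windows, 39.3% (interval 31.9 to 47.3) were followed by GC at the second and the third base, the arrangement AATCACNGC seen at WWP2, FLT1, CSF1R, MBNL1 and FMNL1. In windows 2000 bp to either side it was 10.2% of 59 cores (interval 4.74 to 20.5), a difference of 29.2 percentage points (interval 16.5 to 38.8). An A stood directly before the core in 60.7% of summit cores and 37.3% of flank cores, a difference of 23.4 points (interval 8.32 to 36.8). Both features together were seen in 38 summit cores (25.3%) and in 0 of 59 flank cores, which allows up to 5.08% (3 counts of 59). For intergenic peaks both were seen in 18.2% of summit cores and in 4 of 47 flank cores (8.51%, interval 3.36 to 19.9). For promoter peaks it was 26.7% of summit cores and 0 of 48 flank cores (interval up to 7.41%). Promoter summits had GC at these bases in 47.7% of 86 cores and intergenic summits in 29.3% of 99. In MYB intron 1, in a gene for a progenitor transcription factor, the GFI1 and the SPI1 core shared 2 bases within a run of 12 on opposite strands. The bases TTCC followed 5 of the 150 cores directly, among them those of MYB and DOCK10, and 0 of 59 in the flanks, with an interval of the difference from -3.07 to 7.57 points. These base contexts were looked at after the windows had been seen.

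Intronic peaks were about as strong as the rest of the list. Their fold, the ratio of fragments at the summit to the local background after 1 is added to each, had a median of 7.41 (interval 7.27 to 7.50) and ranged from 3.16 to 50.5. The median was 6.97 (interval 6.74 to 7.41) for promoter peaks and 7.41 for intergenic peaks. The −log10 p, a measure of how unlikely the pileup is on that background, had a median of 11.7 (interval 11.4 to 12.5) in introns and 11.2 (interval 10.3 to 11.3) at promoters. The median intronic peak was 399.5 bp wide and rested on 12 fragments over a background of 0.60, with a range of 6 to 95 fragments, so the depth under a single site was low.

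The strongest intronic peak lay in intron 1 of STAB1, the gene of the scavenger receptor stabilin-1 of macrophages, with 74 fragments at its summit, a 50.5-fold enrichment and −log10 p of 133 (chr3:52498163-52499288). Its summit was 2.5 bp from the centre of the GFI1 core printed above. ERC1, which encodes a scaffold of vesicle release, had the next strongest in intron 3 (fold 31.4). VPS45, a protein of endosomal trafficking, followed with a peak in intron 10 (fold 26.4), and neither window held AATCAC. UBAP1L intron 3 had a fold of 33.4. A peak in the non-coding gene ENSG00000285966 on chromosome 14 had a fold of 31.7 and was called in K562 cells as well. FMNL1, a formin of leukocytes that shapes actin, had a peak of fold 30.4 in intron 1, and SMAP2, a regulator of vesicle transport, one of fold 11.7 that rested on 95 fragments over a background of 7.20. The other 3 of the 10 strongest lay in GARRE1 intron 1 (fold 29.7), ARHGAP26 intron 11 (fold 28.7) and NFAM1 intron 4 (fold 28.1). NFAM1 encodes an ITAM-bearing receptor of leukocytes. Of these 10 windows 4 held the full core, those of STAB1, FMNL1, SMAP2 and NFAM1.

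The GFI1 core was found in 149 of the 1402 intronic summit windows, 10.6% (interval 9.12 to 12.3), beside 10.1% over the whole GFI1 list. In the windows 2000 bp away it was 2.10% (interval 1.63 to 2.7). Promoter summits held it in 8.93% and intergenic summits in 10.2%, and the interval of the intronic minus promoter difference, -0.843 to 4.12 points, included 0. The shorter core AATC was more frequent in intronic (53.6%) than in promoter windows (44.1%), a difference of 9.55 points (interval 5.37 to 13.7). Intergenic windows held AATC in 54.1%, and the interval of the intronic minus intergenic difference, -4.54 to 3.69 points, included 0. The SPI1 core stood in 29 intronic windows (2.07%), against 0.214% of the flanks and 1.73% of the whole list. Cores were searched on both strands, and a match is a description of the letters only.

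Cores of several other blood factors were more frequent at intronic than at promoter summits. TGTGGT, the core of RUNX factors that specify blood cells, was in 8.77% of intronic windows (interval 7.40 to 10.4) and 3.92% of their flanks, but in 2.34% of promoter windows, a difference of 6.43 points (interval 4.60 to 8.22). Over the list it was 6.36%. TTGCNNAA, read by the C/EBP factors of granulocytes and monocytes, was in 6.49% of intronic and 3.01% of promoter windows (5.26% of the list, 2.18% of the intronic flanks). The AP-1 core TGANTCA was in 3.42% and 2.01% (2.92% of the list, 1.46% of the flanks), with an interval of the difference that only just excluded 0. The composite element of ETS and IRF factors stood in 2.57% of intronic windows, 0.558% of promoter windows, 2.05% of the list and 0.464% of the flanks. The GC-box core GGGCGG of SP and KLF factors went the other way, with 1.57% in introns and 11.7% at promoters (4.39% of the list, 1.28% of the intronic flanks). Base composition moved with it, since the median GC content of 200 bp was 46.0% at intronic and 57.5% at promoter summits; its part in these differences was not tested.

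For some cores, intronic summits and flanks were close or matches were few. The GATA core AGATAA was in 2.71% of intronic windows and 2.89% of their flanks, beside 2.37% of the list, and yet it was more frequent in introns than at promoters (1.12%), by 1.59 points (interval 0.415 to 2.71). The interferon response element was in 0.999% and 0.856% (list 0.953%), the promoter-type ETS core CCGGAAG in 0.143% of both (list 0.347%), and the CTCF element in 0.143% and 0.0357% (list 0.0867%). The last rests on 2 windows, and in 200 bp the CTCF element was in 0.642% of intronic windows (interval 0.338 to 1.22) and 0.0713% of flank windows (interval 0.0196 to 0.260). At least 1 of the 11 cores was found in 33.7% of intronic summit windows (interval 31.2 to 36.2) and 14.6% of flank windows. Against intergenic summits, the interval of the difference included 0 for each of the 11 cores.

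**Figure D1:**
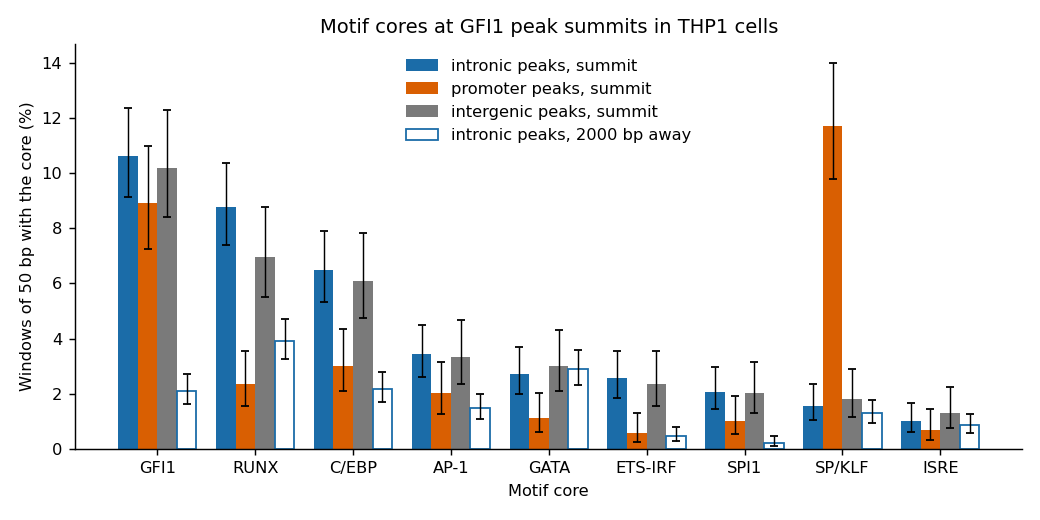
Share of 50 bp windows with each of 9 motif cores (x axis) at intronic, promoter and intergenic GFI1 summits, and in windows 2000 bp from the intronic summits (y axis, percent; error bars, 95% Wilson intervals). The GFI1 core stands at 10.6% in introns against 2.10% in the flanks, RUNX and C/EBP cores are higher in introns than at promoters, and the SP/KLF core is at 11.7% at promoters.

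GFI1 and SPI1 cores gathered at the summit itself. Counted in 50 bp bins, there were 9.99 GFI1 cores per 100 intronic peaks in the bin just before the summit and 11.1 in the bin just after it. At 450 to 500 bp the numbers were 2.07 and 2.21. The SPI1 core had 2.28 and 1.93 per 100 intronic peaks in the same central bins, and 0.0713 and 0.357 in the outermost ones. Other cores were spread more widely. The AP-1 core had 3.28 and 3.85 in the central bins and 4.14 at 50 to 99 bp. For the RUNX core these values were 9.42, 9.49 and 8.49.

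**Figure D2:**
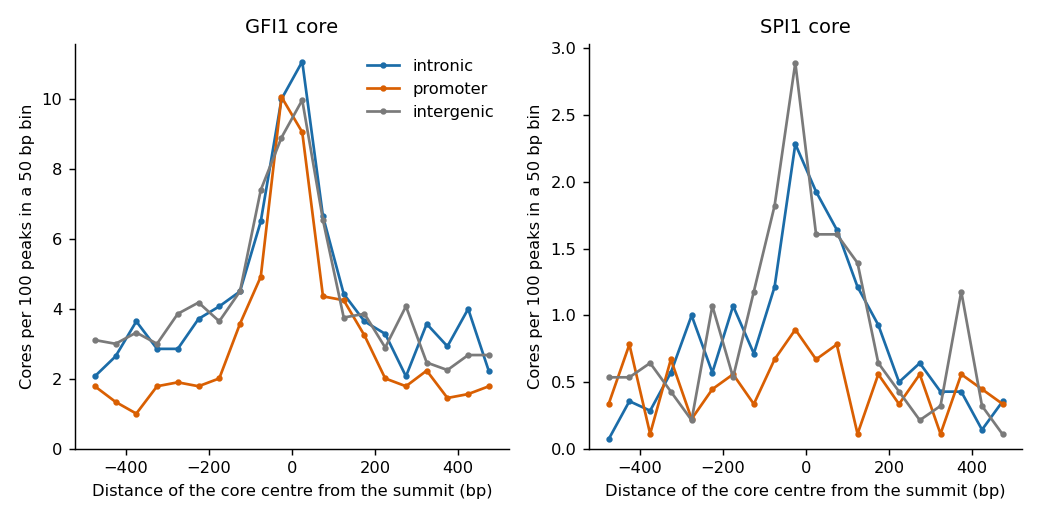
GFI1 (left) and SPI1 (right) cores per 100 peaks (y axis) in 50 bp bins of distance from the summit (x axis, bp) for intronic, promoter and intergenic peaks. GFI1 cores of intronic peaks reach 11.1 per 100 peaks at the summit, and SPI1 cores of promoter peaks form a lower crest than those of intronic peaks.

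Stronger intronic peaks held the GFI1 core more often. In the strongest of 4 equal groups (−log10 p 17.1 to 133) 17.4% did (interval 13.8 to 21.8), then 12.3%, 6.29% and, in the weakest group (5.12 to 8.58), 6.55% (interval 4.41 to 9.64). Put the other way, peaks with the core had a median −log10 p of 14.9 (interval 13.5 to 17.0) and those without it 11.5 (interval 11.3 to 12.0). The RUNX core showed no such order, with 8.86%, 10.3%, 8.86% and 7.12%. For the C/EBP core the shares were 7.71%, 6.84%, 6.00% and 5.41%, with overlapping intervals. Overlap with other lists was most frequent in the strongest group for GFI1 of sg-NT cells (5.43%, 1.71%, 0.571% and 0.855%) and for LSD1 (9.43%, 5.41%, 5.43% and 3.13%). For SPI1 it was 8.86%, 7.69%, 4.57% and 4.27%. GFI1 peaks of sg-LSD1 cells overlapped 8 of the strongest group and 0 of the 351 weakest, which allows up to 0.855% (3 counts of 351).

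**Figure D3:**
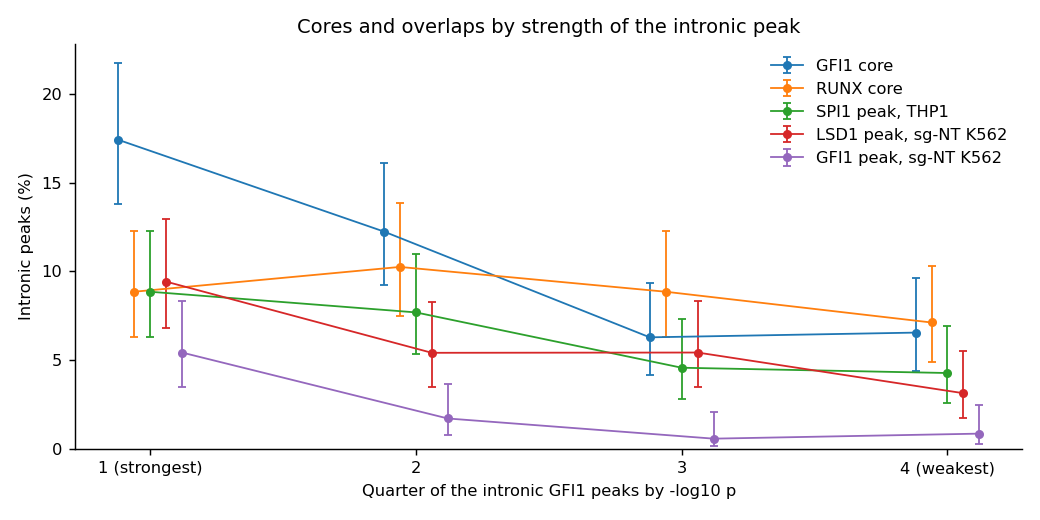
Share of intronic GFI1 peaks (y axis, percent; error bars, 95% Wilson intervals) with a GFI1 or RUNX core or with a peak of another list, in 4 groups of decreasing −log10 p (x axis). The GFI1 core goes from 17.4% in the strongest group to 6.55% in the weakest, whereas the RUNX core lies between 7.12% and 10.3%.

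Most GFI1 peaks had no partner in another list, in introns as elsewhere. Of the 1402 intronic peaks, 1225 (87.4%) overlapped none of the other 4 lists by at least 1 bp, beside 85.4% of all GFI1 peaks. SPI1 peaks of the same cells overlapped 89 (6.35%, interval 5.19 to 7.75), beside 5.58% of all GFI1 peaks. At promoters it was 2.23%, so introns were higher by 4.12 points (interval 2.45 to 5.72), and intergenic peaks reached 7.39%. With the boundary between promoter and intronic peaks at 5000 bp in place of 1000 bp, this difference was 2.00 points (interval 0.276 to 3.80). LSD1 peaks of sg-NT K562 cells showed the opposite order. They overlapped 82 intronic peaks (5.85%, interval 4.74 to 7.20), 15.0% of promoter peaks and 8.7% of the whole list, an intronic minus promoter difference of -9.11 points (interval -11.8 to -6.54). The LSD1 library is from another cell line, and cell line and antibody cannot be told apart in this comparison.

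GFI1 peaks of K562 cells overlapped few intronic peaks of THP1 cells. In sg-NT cells they met 30 (2.14%, interval 1.50 to 3.04; whole list 2.34%), and 22 of these also had an LSD1 peak, as did 67 of the 81 in the whole list. In sg-LSD1 cells they met 14 (0.999%, interval 0.596 to 1.67; whole list 1.07%), and 5 of these were in both K562 GFI1 lists, as were 14 of the 37 in the whole list. Their intervals of the intronic minus promoter difference included 0. Seen from the other lists, with peaks of every position class, intronic GFI1 peaks of THP1 cells covered 4.82% of SPI1 peaks, 1.25% of LSD1 peaks, 6.02% of sg-NT GFI1 peaks and 8.75% of sg-LSD1 GFI1 peaks. Of the intronic peaks of these lists alone, they covered 9.21%, 2.80%, 11.0% and 14.6% in the same order.

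Where peaks were shared, the summits mostly lay close together, although overlap of the peaks in itself limits this distance. No distance expected from overlap alone was computed. The median distance between summits was 29 bp (interval 10 to 60) for the 30 peaks shared with GFI1 of sg-NT cells and 29.5 bp (interval 11 to 83) for the 14 shared with sg-LSD1 cells. It was 47 bp (interval 39 to 108) for LSD1 and 80 bp (interval 59 to 112) for SPI1. Intronic peaks shared with sg-NT GFI1 peaks were strong in THP1 cells, with a median fold of 11.6 (interval 8.75 to 16.2) against 7.41 for the rest. Those shared with SPI1 had a median fold of 8.08 (interval 7.41 to 9.23).

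The sequence under the shared peaks differed by partner. Of intronic peaks with an SPI1 peak, 7.87% held the ETS and IRF composite element, against 2.21% without one (difference 5.66 points, interval 1.54 to 13.2), and GAGGAAGT was in 4 of 89. AATCAC was also in 4 of these 89 (4.49%) and in 11.0% of the rest, and the interval of the difference, -9.83 to 0.140 points, included 0. The C/EBP core was in 1 of 89, against 6.85% of the rest (difference -5.73 points, interval -7.49 to -0.608). At the SPI1 summits themselves the SPI1 core was in 16.9% of the 89 (interval 10.5 to 26.0) and in 28.6% of the 838 intronic SPI1 peaks that met no intronic GFI1 peak of THP1 cells (interval 25.7 to 31.8). Of the 30 intronic peaks shared with GFI1 of sg-NT K562 cells, 5 (16.7%) held the GATA core, against 2.41% of the rest, a difference of 14.3 points (interval 4.88 to 31.2). GATA1 is the leading GATA factor of erythroid cells such as K562. At the K562 GFI1 summits of these sites, 8 of 30 (26.7%, interval 14.2 to 44.4) held the GFI1 core and 8 the GATA core. At the 227 other intronic GFI1 peaks of sg-NT cells it was 6.61% (interval 4.05 to 10.6) for the GFI1 core and 14.5% (interval 10.5 to 19.7) for the GATA core, so that the GATA intervals overlapped. These splits were examined for 9 cores and 4 lists, so intervals that narrowly exclude 0 are weak.

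Of the intronic peaks shared with SPI1, that in ARHGAP26 intron 11 had the largest GFI1 fold (28.7) but a small SPI1 fold (5.23). Its SPI1 peak ended at chr5:143002894, before the GFI1 summit at 143003062. RBM47, an RNA-binding protein, had a peak in intron 1 with GFI1 and SPI1 folds of 23.2 and 13.9, and a GFI1 peak of sg-LSD1 K562 cells there with a fold of 10.3. In OSBPL11, a sterol-binding protein gene, the GFI1 fold was 24.6 and the SPI1 fold 13.0, over the SPI1 core printed above. SHQ1 intron 10 had folds of 23.6 and 6.82. MAP3K20, a stress kinase gene, had 22.5 and 8.92 in intron 19.

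Several of the strongest intronic peaks shared with K562 cells overlapped peaks of both K562 antibodies. At ENSG00000285966 the THP1 GFI1 fold of 31.7 stood beside an LSD1 fold of 26.4 and a GFI1 fold of 11.7 in sg-NT cells. C1QTNF8 intron 4 had 26.3, 6.83 and 10.5 in the same order, and MAEA intron 6, in a gene for a subunit of a ubiquitin ligase, had 21.6, 8.85 and 6.04. At MAEA the LSD1 peak ended at chr4:1335826 and the K562 GFI1 peak at 1336212, both before the THP1 summit at 1336236. FLT1 intron 15, in the gene of a VEGF receptor, had 18.1, 10.4 and 6.92, and its window holds both AATCAC and, on the other strand, AGATAA. RFX1 intron 1 had an LSD1 fold of 25.6 and no K562 GFI1 peak. That LSD1 peak began at chr19:14005376, past the THP1 summit at 14005229. GARRE1 intron 1 was called for GFI1 in sg-NT (fold 6.20) and sg-LSD1 cells (fold 8.40) but not for LSD1. FNBP1L intron 1 had a GFI1 fold of 5.46 in sg-NT cells, in a peak that ended at chr1:93449311, just before the THP1 summit at 93449315. Intronic peaks of WWP2, a ubiquitin ligase gene (intron 2, fold 11.0), GNA15, a G protein of blood cells (intron 1, fold 5.61), and TAB2 (gene body, fold 7.76) were called in sg-LSD1 cells but not in sg-NT cells. Folds come from separate libraries, whose read totals are not known here, and they were not compared between cell lines.

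Within genes, the first intron held more GFI1 peaks than its length. Of the 1402 intronic peaks, 1095 (78.1%) had a protein-coding host gene and 307 (21.9%) lay only in non-coding genes. For 910, the summit fell in an intron of the canonical transcript of a coding gene. Of these, 352 (38.7%, interval 35.6 to 41.9) were in the first intron, which makes up 23.5% of the intron length that lies over 1000 bp from coding starts. The density was 1.38 peaks per Mb in first introns, 0.863 in the second, 0.624 in the third and 0.628 in later introns. The median intronic peak lay 20028.5 bp from the nearest coding start (interval 17832 to 21943) and 2422 bp from the nearest exon. For 146 (10.4%), a transcript start of another type, such as that of a long non-coding RNA, lay within 1000 bp.

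Of the 20033 protein-coding genes, 1014 (5.06%) held an intronic GFI1 peak, at 0.794 peaks per Mb of gene body. Longer genes held one more often, 1.92% of genes of 10 to 30 kb, 6.08% of 30 to 100 kb, 13.3% of 100 to 300 kb and 19.4% of those over 300 kb. Per Mb, however, the longest class had the lowest density, 0.455. Genes that also had a GFI1 peak at a promoter held an intronic one more often, in 12.3% of cases (115 of 937, interval 10.3 to 14.5), than genes without one (4.71%, interval 4.42 to 5.02). Their densities were 1.78 and 0.741 per Mb. Their median lengths were 48.4 and 26.7 kb, and the part of gene length in this contrast was not tested.

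Several gene lists held intronic GFI1 peaks above this share, those of blood regulation and also that of cell cycle and apoptosis. The lists were drawn up with earlier results of these data known, and they were not matched to other genes of the same length. Of 36 myeloid transcription factors, 10 held at least 1 (27.8%, interval 15.8 to 44). These 10 ranged from 36.7 kb for NR4A1 to 1217 kb for RUNX1, whereas the list's median length was 24.0 kb. Of 39 genes of leukocyte signalling, 13 did (33.3%, interval 20.6 to 49.0). The list's median length was 87.6 kb, in the class with 6.08%, but these 13 ranged from 14.8 kb for PTPN6 to 596 kb for ELMO1. ELMO1, ARHGAP26, DOCK2 and ARHGEF3 were over 300 kb, in the class with 19.4%. Of 29 targets and partners of KMT2A fusions, 12 did (41.4%, interval 25.5 to 59.3), with a median length of 157 kb, in the class with 13.3%. THP1 cells carry a fusion of KMT2A with MLLT3. Of 27 genes of NF-kappaB and inflammation, 5 did (18.5%, interval 8.18 to 36.7), with 7 peaks in 0.758 Mb. The share was smaller for phagocyte receptors and integrins (3 of 34), the GFI1 and LSD1 repressor complex (2 of 22) and granule proteins (1 of 20), whose intervals included 5.06%. Of 24 genes of cell cycle and apoptosis, 4 did (16.7%, interval 6.68 to 35.9). Their list had 3.04 peaks per Mb, beside 3.15 for myeloid transcription factors and 2.97 for KMT2A targets and partners. Among 25 very long genes of brain and muscle 3 held a peak (12%, interval 4.17 to 29.96), and this interval also included 5.06%. Their median length was 1337 kb, in the class with 19.4%. The list had 0.137 peaks per Mb, beside 0.455 for that class. In all, 49 of 250 listed genes held a peak, and 4 of these genes are in 2 lists.

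**Figure D4:**
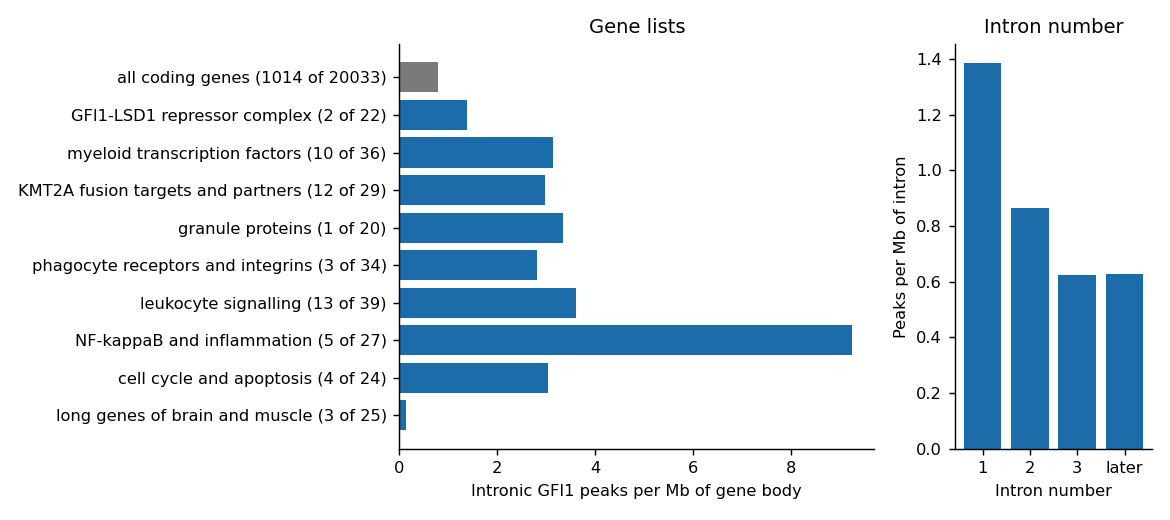
Left, intronic GFI1 peaks per Mb of gene body (x axis) for all coding genes and 9 gene lists, with the number of genes that hold a peak; right, peaks per Mb of intron (y axis) by intron number. All coding genes stand at 0.794 per Mb, leukocyte signalling at 3.60, NF-kappaB and inflammation at 9.23 on 7 peaks and long genes of brain and muscle at 0.137; first introns stand at 1.38 per Mb.

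Among the transcription factor genes, MYB had the strongest peak (intron 1, fold 12.3, 22 fragments), 2106 bp from a coding start. BACH1, a repressor of heme and oxidative stress genes, had 2 peaks, of fold 11.2 and 8.91, and the first was also called for GFI1 in sg-NT K562 cells (fold 6.71). Neither BACH1 peak lay in an intron of the canonical transcript. MITF, a factor of pigment and myeloid cells, had a peak of fold 11.1 in intron 1. NR4A1, an orphan nuclear receptor of monocytes, had one of fold 9.29 over an AATCAC core 0.5 bp from the summit. ETV6 intron 2 had a GFI1 fold of 5.46 and an SPI1 fold of 6.01. RUNX1 held 4 peaks of fold 10.8, 8.76, 8.09 and 6.82, none of which overlapped another list. Only the last lay in an intron of the canonical transcript (intron 6). The others lay elsewhere in the annotated gene body of 1217 kb, 429444, 266490 and 440590 bp from the nearest coding start. The peaks of RUNX2 (5.00), ERG (6.06), FLI1 (4.85) and ELF1 (9.43) were weaker than that of MYB.

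The phagocyte receptor genes held few peaks, but those of CSF1R were shared with SPI1. CSF1R, the receptor of macrophage colony-stimulating factor, had a GFI1 peak in intron 1 (fold 17.5, 25 fragments) with an SPI1 peak of fold 9.26, and one in intron 14 (fold 11.2) with an SPI1 peak of fold 9.81. In intron 1 the SPI1 peak ended at chr5:150082198 and did not reach the GFI1 summit at 150082578. FCGR1A, an Fc receptor with near-identical copies that make its mapping uncertain, had a peak of fold 7.73 with LSD1 (8.98) and GFI1 (7.93) peaks of sg-NT K562 cells. The K562 GFI1 peak there ended at chr1:149788208, before the THP1 summit at 149788234. TLR2, a receptor of bacterial lipoproteins, had one of fold 9.80. In the signalling list, DOCK10 and PREX1 held 3 each. PREX1 intron 1 had an SPI1 peak of fold 8.26 at a GFI1 peak of fold 6.82. LYN, a SRC family kinase, had a peak of fold 10.1. Among the KMT2A targets and partners, TAPT1 had the strongest peak (intron 3, fold 21.0), followed by MBNL1, a splicing factor (fold 16.1). FLT3, the receptor of early progenitors, had 2, and the one in intron 15 (fold 6.06) met an SPI1 peak of fold 12.1. TNFRSF1B, a TNF receptor gene, had 2 peaks in intron 1 of fold 8.76 and 7.41, and an SPI1 peak of fold 9.26 at the weaker one. BCL3 intron 2 (fold 8.12) met an LSD1 peak of fold 13.6. In the repressor complex list, GSE1, a subunit of LSD1 complexes, had 2 peaks of fold 8.76 and 7.41, and the weaker overlapped both SPI1 (9.97) and LSD1 (6.20). That LSD1 peak ended at chr16:85571080, within the GFI1 peak but before its summit at 85571848. Neither GFI1 peak of GSE1 lay in an intron of the canonical transcript. In the brain and muscle list, CSMD1 stood out with a peak of fold 24.8 in intron 7. The serine protease gene PRTN3, the granule gene at the centre of the study, had 1 peak in intron 1 (fold 10.3, −log10 p 17.7, 15 fragments) 1067 bp from the coding start, which overlapped an LSD1 peak of fold 15.1 in sg-NT K562 cells.

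Most genes with an intronic peak held a single one. Of the 1014, 866 held 1, 124 held 2, 19 held 3, 4 held 4 and 1 held 5. TBC1D8, a gene of the TBC family of Rab regulators, held 5 peaks over 246 kb with folds from 7.09 to 19.5, none of which overlapped another list. Only the TBC1D8 peaks of fold 19.5 and 7.09 lay in introns of the canonical transcript. TTC7A held 4 with folds from 7.73 to 17.5, and MGLL, which encodes monoacylglycerol lipase, 4 with folds from 4.75 to 13.6. SMAP2 held 4 in 78.5 kb with folds from 3.16 to 11.7, and SPI1 peaks of fold 10.6 and 5.93 lay at 2 of them. The MGLL peak of fold 6.22 and the SMAP2 peaks of fold 4.94 and 3.16 also lay in no intron of the canonical transcript.

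The peaks of SMAP2 belonged to a stretch of chromosome 1 with a raised local background. From 39875200 to 40704016 (829 kb) lay 13 intronic peaks, and each had a background of 3 or more fragments (3.52 to 7.20, median 5.40), against a median of 0.60 at the other intronic peaks. In all, 20 intronic peaks of the list reached 3. Folds in this stretch were lower, with a median of 4.94. Fragments at these summits were more numerous, from 19 in RIMS3 to 95 in SMAP2, against a median of 12 over all intronic peaks. The reason for the lower folds was not tested. The list held 37 GFI1 peaks there in all. The copy number of this stretch was not measured here. Across the autosomes, the density of intronic peaks ran from 0.394 per Mb of gene body on chromosome 11 to 1.74 on chromosome 19. Chromosome Y had 0 intronic peaks, and chromosome X had 1 in 71.0 Mb. Few peaks of the lists counted by chromosome lay on X (2 GFI1 peaks of THP1 cells, 7 SPI1 peaks and 24 LSD1 peaks). The GFI1 lists of K562 cells were not counted in this way.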

How the data were processed

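Peak lists of 5 human ChIP-seq libraries were used, and the input and murine H3K4me1 libraries were not used here. Per the submitters' notes and the study's methods, Trim Galore 0.6.1 served for trimming, Bowtie2 2.5.4 for alignment (GRCh38) and Picard 3.1.0 for discarding duplicates. Peaks were then called library by library in MACS2 2.2.9.1 at p 1e-05, without blacklisted regions. Use of the input as MACS2 control is not given in the sources used here. The fold deposited by the authors is a ratio of pileup to background. The −log10 p and −log10 q values deposited by the authors belong to the summit, and the deposited score, a whole-number form of the −log10 p, was not used.

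Read totals were not at hand. Fragments and background were solved from fold and −log10 p, which gave whole fragments at 100% of the 3461 GFI1 peaks (tolerance 0.01 in −log10 p). Summits were placed on GENCODE 44, and the longest coding host whose canonical transcript had an intron at the summit gave the gene name and intron number. Cores were searched in 50 bp. Shares have Wilson and their differences Newcombe intervals, and medians order-statistic intervals. Calculations used Python 3.11.15, scipy 1.17.1, numpy 2.4.6 and pysam 0.24.0, and functions were tested on simulated data. Named peaks were the 10 strongest, the 5 strongest shared with each list, those of the 5 genes with most, the strongest in up to 4 genes a list and that of PRTN3. Further listed peaks were named after their values were seen. The peaks and lists were chosen with earlier results of these data known. Alternatives were another start distance, a −log10 p of at least 8, coding hosts, other overlap rules, wider windows and shorter cores. The sequence at PRTN3 is not reported here.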

Additional observations from a re-analysis of the deposited data

How the results depend on the processing

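No paired analysis was possible because each antibody and condition of the human cells had 1 library and no test was made. Of 74 alternative values, 59 stayed within the interval of the reported value, or within 1.5 times for the number of peaks. The intronic minus promoter differences for SPI1 and LSD1 kept their sign under each alternative. The other results are counts, shares or medians and have no direction to change. With a start distance over 5000 bp, the intronic share was 32.8%, the share of coding genes 3.94% and the intronic minus promoter difference for SPI1 2.00 points. With protein-coding hosts only, the intronic share was 31.6%. With a −log10 p of at least 8, the median fold was 8.08 and the share of coding genes 4.28%. With summits at most 200 bp apart, the LSD1 share was 4.49%. In 200 bp windows the cores were found in 29.7% (GFI1; flanks 9.66%), 6.70% (SPI1; flanks 1.11%), 26.5% (RUNX), 22.8% (C/EBP) and 12.8% (AP-1), and the shorter cores AATC and GAGGAA in 53.6% and 9.13% (flanks 30.2% and 3.71%), since larger windows and shorter cores hold more matches. Chosen after seeing the data, starts of all transcripts of protein-coding genes gave 1346 intronic peaks and a share of coding genes of 4.72%, and leaving out peaks on a background of 3 or more fragments gave 1382. A median of 12 fragments limits every single site: weaker sites fall under the calling threshold, and an absent overlap was not read as absent binding.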
